A study of Homo sapiens with 6 samples.

Results

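The genes described here handle fatty acids inside the cell: the binding proteins FABP4, FABP3 and FABP5, the nuclear receptors PPARG and PPARD, the lipase and uptake genes LPL, ANGPTL4 and CD36, the lipid droplet protein PLIN2 and the mitochondrial kinase PDK4. They were taken by symbol, and the probe set of each was chosen by the highest mean over the 6 arrays among those that carry exactly 1 gene symbol, a value that does not use the difference between groups. Of the 10 genes named, 9 were measured among 18417 genes in all, and each of the 9 had 1 such probe set, so no choice between probe sets was made. FABP5 stood only on 2 probe sets that carry further symbols and was not analysed here. The set was gathered with earlier results of these data known, the fall of FABP4 among them. FABP4 and the counts over the set are therefore a description of the arrays and no independent result.

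The samples were IMR90 cells, primary fibroblasts of human lung, which are mesenchymal cells that make the connective tissue of the organ. The oncostatin M group (n = 3) received a single dose of 10 ng/mL of the recombinant human cytokine, which signals through gp130 receptors and STAT3. The control group (n = 3) was left untreated, and the labels name no vehicle and no treatment time. All 6 samples come from 1 cell line, and nothing in the labels says that replicates were separate cultures, so p-values may reflect technical spread alone.

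Fatty acids are poorly soluble, and cells carry them on small binding proteins and store them as triglyceride in lipid droplets. PPARG and PPARD are nuclear receptors that bind fatty acids and, paired with RXR receptors, switch on genes of fat storage and of fat burning. PPARG is the central regulator of fat cell formation. In the developing lung, lipid-storing fibroblasts that hold droplets coated with PLIN2 lie beside the alveolar epithelium.

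Values are log2 expression levels per array, with means ± SD over 3 arrays, and a change is the oncostatin M mean minus the control mean of these log2 levels, with its standard error (SE). A gene was called at an adjusted p under 0.05 in a limma fit over all 18417 genes. Array medians lay between 6.54 and 6.66. SOCS3, the feedback inhibitor that oncostatin M induces, was 4.16-fold higher, a check of the labels. The array oncostatin M 1 deviated most from its group. Because the files hold no detection calls, levels are placed among those of 409 genes of olfactory receptors and keratin-associated proteins, which fibroblasts are not expected to use. A level under the percentile of 95 of these genes (6.77 after oncostatin M and 6.74 in control) is called the silent range below, although single genes in it may be expressed and probe sets differ in brightness. The genes above these bounds were all keratin-associated proteins, and the brightest, KRTAP1-4 (10.57 and 10.74), may not be silent. The highest olfactory receptor means were 6.735 after oncostatin M (OR2H2) and 6.64 in control (OR7D4).

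After oncostatin M, 3 of the 9 measured genes were lower (FABP4, FABP3 and ANGPTL4) and none was higher. Over all genes 1.70% were called lower and 1.72% higher. With FABP4 set aside because its fall was known, 2 of 8 were lower. These 8 were also gathered with earlier results of these data known, so neither count is independent of the choice. PPARG, PPARD, LPL, CD36, PLIN2 and PDK4 did not pass the threshold. The groups did not overlap for 6 genes, of which 3 were lower (FABP4, FABP3 and ANGPTL4) and 3 higher (PPARD, CD36 and PDK4) after oncostatin M. Over all genes 10.6% lay wholly lower and 7.43% wholly higher. Only PPARG, PPARD, PLIN2 and ANGPTL4 lay above the silent range in both groups. The median change of the 9 genes was -0.05, against 0.0006 over all genes.

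**Figure D1:**
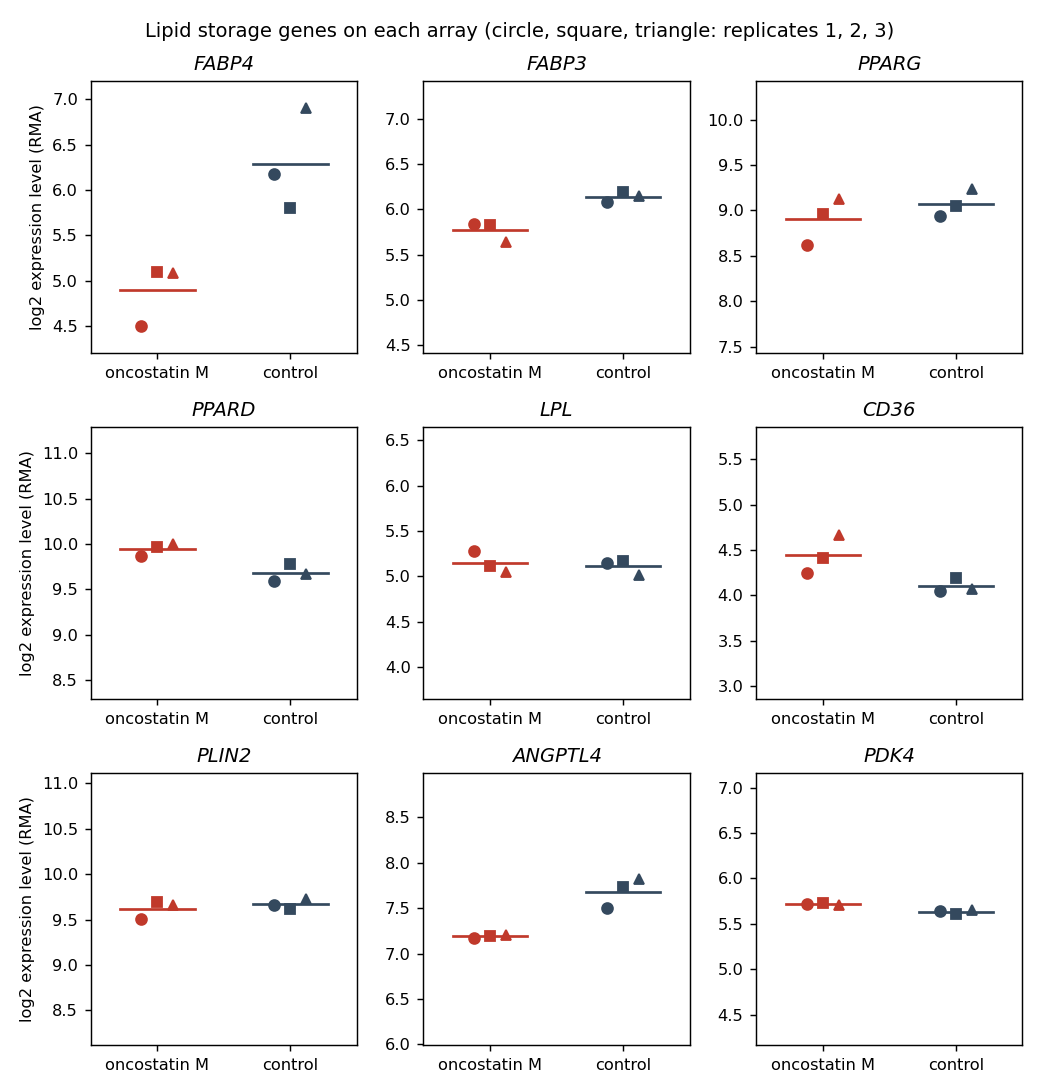
Log2 expression level (vertical axis, RMA) of the 9 genes on each of the 3 oncostatin M arrays (left, red) and the 3 control arrays (right, dark). Each panel spans the same 3 log2 units around its own midpoint, symbols mark the replicate number and lines the group means. FABP4 shows the widest gap, ANGPTL4 and FABP3 smaller ones, and PLIN2, LPL and PPARG overlap between groups.

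FABP4, the fatty acid binding protein of fat cells, macrophages and capillary endothelium and a classical target of PPARG, was the gene with the largest fall of the 9. Its level was 4.50, 5.10 and 5.08 on the oncostatin M arrays, against 6.17, 5.80 and 6.90 on the control arrays. All 3 oncostatin M arrays lay below the lowest control array, and control 3 stood highest. The change was -1.40 (SE 0.27, 95% interval -2.03 to -0.77, limma adjusted p = 0.0316). Both group means, 4.89 ± 0.34 and 6.29 ± 0.56, lay in the silent range, above 59.4% of the silent genes after oncostatin M and 90.2% in control. No fold is given for FABP4 for that reason.

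The spread of FABP4 was large. Its SD within groups, pooled over both, was 0.46, and 99.8% of all genes had a smaller one. FABP4 no longer passed when control 1 was left out (change -1.46, adjusted p = 0.138). The same held for leaving out oncostatin M 2, with an adjusted p of 0.05055, and oncostatin M 3, with 0.0560. Without oncostatin M 1 it was -1.20 and passed (adjusted p = 0.0390). Without control 3, the highest control array, it was -1.09 and also passed (adjusted p = 0.0453).

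FABP4 marks several cell types, so markers of these were read on the same arrays. In a bulk sample, fewer cells of a type and less RNA per cell cannot be told apart. Of 10 adipocyte markers none was called, and 7 lay in the silent range in both groups. Among these were ADIPOQ (5.57 after oncostatin M and 5.45 in control), the fat cell hormone adiponectin, and LEP (5.86 and 5.74), which encodes leptin. PLIN1 (7.11 and 7.08), LIPE (7.19 and 7.20) and CFD (7.66 and 7.52) lay above the silent range in both groups. The summed log2 level of the 10 adipocyte markers ran from 64.11 to 66.47 after oncostatin M and from 63.77 to 64.92 in control. The array oncostatin M 1, which deviated most from its group, gave the upper end. It also gave the upper end after oncostatin M of the macrophage, endothelial, epithelial and lipid-storing fibroblast sums below. Of 10 macrophage markers none was called and 8 lay in the silent range in both groups, with sums of 57.63 to 59.86 after oncostatin M and 57.75 to 58.25 in control. The other 2 lay above it: CD68, which fibroblasts also express, at 10.65 and 10.67, and TYROBP at 8.03 after oncostatin M and 7.92 in control. Of 10 endothelial markers none was called and 7 lay in the silent range, PECAM1, CDH5 and VWF among them, with sums of 59.68 to 61.68 after oncostatin M and 59.42 to 60.64 in control. TEK, an angiopoietin receptor, lay above the silent range and wholly higher after oncostatin M (9.04 ± 0.28, against 8.57 ± 0.16 in control). Its change of 0.47 did not pass with all 6 arrays (limma adjusted p = 0.182) and passed without oncostatin M 3 (0.0328).

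Of 10 epithelial markers 1, the keratin KRT18, was higher and 7 lay in the silent range, with sums of 62.27 to 65.15 after oncostatin M and 62.18 to 63.28 in control. KRT18 did not pass without control 1 (limma adjusted p = 0.118), control 3 (0.0898) or oncostatin M 3 (0.0720). All 10 fibroblast markers lay above the silent range in at least 1 group. Their sums did not overlap, at 113.28 to 114.74 after oncostatin M and 112.53 to 113.16 in control, with LUM and PDGFRA called higher and PDGFRB lower. LUM lost its call with any 1 control array left out (adjusted p up to 0.109, without control 2). PDGFRA lost it with any 1 control array (up to 0.157, without control 1) or oncostatin M 2 (0.1275) left out, and PDGFRB in every such fit but the one without oncostatin M 1 (up to 0.127, without control 3). The part of these fibroblast genes in the results was not tested. Of 7 measured markers of lipid-storing lung fibroblasts none was called. These include PLIN2 and LPL of the present set and the transcription factor TCF21, whose change was 0.33 (adjusted p = 0.0793). Their sums were 47.51 to 48.70 after oncostatin M and 47.28 to 47.65 in control, and 4 of the 7 lay in the silent range.

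FABP3, the fatty acid binding protein best known from heart muscle, fell as well, by a smaller amount. Its level was 5.83, 5.83 and 5.64 on the oncostatin M arrays, against 6.08, 6.19 and 6.15 on the control arrays. The groups did not overlap, and the control arrays lay close together. The change was -0.37 (SE 0.08, 95% interval -0.56 to -0.19, limma adjusted p = 0.0484). Both means, 5.77 ± 0.11 and 6.14 ± 0.05, lay in the silent range. The call was near the threshold: it was lost in 5 of the 6 fits with 1 array left out, with adjusted p = 0.1003 without oncostatin M 2, 0.159 without oncostatin M 3, 0.150 without control 1, 0.191 without control 2 and 0.1775 without control 3. Without oncostatin M 1 it passed (change -0.40, adjusted p = 0.0318).

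None of the 5 other measured genes of this binding protein family (FABP2, FABP6, FABP7, FABP12 and PMP2, the myelin protein) was called. Their changes ran from -0.13 to 0.14, the smallest adjusted p was 0.722, and all lay in the silent range in both groups.

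**Figure D2:**
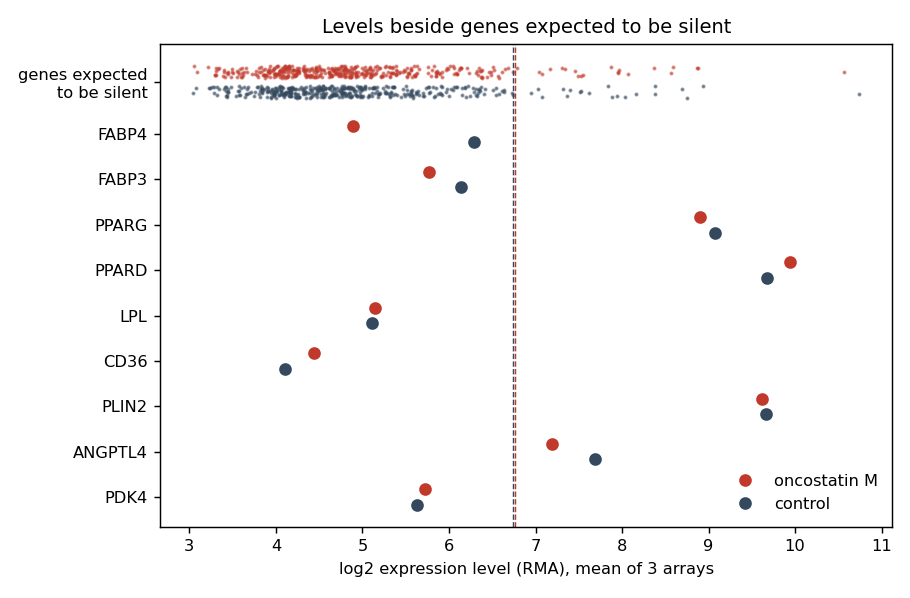
Mean log2 level (horizontal axis, RMA, 3 arrays) of each gene after oncostatin M (red, upper point) and in control (dark, lower point), with the 409 genes expected to be silent in the top row. Dashed lines mark the percentile of 95 of the silent genes in each group, 6.77 and 6.74. PPARG, PPARD, PLIN2 and ANGPTL4 lie to the right of the lines and the other 5 genes to the left.

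The receptors PPARG and PPARD were both well above the silent range. PPARG was at 8.62, 8.96 and 9.13 on the oncostatin M arrays, against 8.94, 9.04 and 9.24 on the control arrays. The groups overlapped, and oncostatin M 1 was the lowest array of all 6. The means were 8.90 ± 0.26 and 9.07 ± 0.15, and the change of -0.17 (SE 0.14) did not pass (limma adjusted p = 0.816). Its 95% interval reached from -0.49 to 0.15, so a fall of up to 0.49 lies within it. Without oncostatin M 1 the change was -0.03.

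PPARD, the form of the receptor found in most tissues, was at 9.87, 9.96 and 10.00 after oncostatin M, against 9.59, 9.78 and 9.67 in control. All 3 oncostatin M arrays lay above the highest control array. The means were 9.94 ± 0.07 and 9.68 ± 0.10, and the change of 0.26 (SE 0.08, 95% interval 0.08 to 0.45) did not pass the threshold over all genes (limma adjusted p = 0.163). That interval holds for 1 gene on its own and is not adjusted. With array weights, which count oncostatin M 1 least, PPARD passed (change 0.33, adjusted p = 0.0119). PPARA, the third receptor of the family, changed by -0.08 (adjusted p = 0.922). Whether the changes of PPARG and PPARD differ from each other was not tested.

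Of 15 measured partners and coregulators of these receptors, none was called. RXRG and RXRA, receptors that pair with PPARs, had the largest changes, 0.28 (adjusted p = 0.234) and 0.22 (0.306). The list median was 0.05. Of 16 measured genes of the adipocyte transcription programme, not all of which act upstream of PPARG, 3 were called higher and none lower. The groups did not overlap for 6 genes that were higher and 2 that were lower. KLF4, 1 of these 2, changed by -0.43 (limma adjusted p = 0.0617). CEBPD and CEBPB, which induce PPARG early in adipogenesis, rose by 1.25 (SE 0.08, adjusted p = 0.000297) and 0.52 (SE 0.07, adjusted p = 0.00520). KLF5, another early factor, rose by 0.57 (SE 0.07, adjusted p = 0.00346).

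CEBPB stood at 9.70, 9.81 and 9.81 on the oncostatin M arrays, against 9.23, 9.23 and 9.29 on the control arrays. KLF5 stood at 8.65, 8.60 and 8.69, against 8.12, 8.07 and 8.02 in control. In neither did the groups overlap, and CEBPD, CEBPB and KLF5 kept their calls in all 6 fits with 1 array left out. CEBPA, which acts with PPARG later in adipogenesis, was in the silent range in both groups (6.70 after oncostatin M and 6.52 in control) and changed by 0.17 (adjusted p = 0.814). The median of the list was 0.10.

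ANGPTL4, a secreted inhibitor of lipoprotein lipase and a target of PPAR receptors, fell as well, at levels above the silent range. Its level was 7.17, 7.19 and 7.21 on the oncostatin M arrays, against 7.50, 7.73 and 7.82 on the control arrays. The oncostatin M arrays lay within 0.04 of each other and below every control array. The change was -0.49 (SE 0.09, 95% interval -0.70 to -0.28, limma adjusted p = 0.0255), a level 1.41-fold lower. Means were 7.19 ± 0.02 and 7.68 ± 0.16. They lay above 95.8% of the silent genes after oncostatin M and 97.3% in control, so the level after oncostatin M was near the bound. ANGPTL4 did not pass once control 2 (adjusted p = 0.120) or control 3 (0.1055) was left out, nor without either of oncostatin M 2 (0.0802) and oncostatin M 3 (0.0758), while the change stayed between -0.43 and -0.58 in the 6 fits with 1 array left out. None of 4 other measured ANGPTL genes was called, with changes from -0.14 to 0.06.

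The promoter windows of FABP3 and ANGPTL4 are shown because both genes were called lower and can be set side by side. They run from 250 bases before to 50 bases after the start site, on the gene's strand, and come from RefSeq (GRCh38.p14). The FABP3 window is chr1:31373027-31373326 (minus strand) and the ANGPTL4 window chr19:8363905-8364204 (plus strand). Capitals mark a match to any motif searched.
FABP3: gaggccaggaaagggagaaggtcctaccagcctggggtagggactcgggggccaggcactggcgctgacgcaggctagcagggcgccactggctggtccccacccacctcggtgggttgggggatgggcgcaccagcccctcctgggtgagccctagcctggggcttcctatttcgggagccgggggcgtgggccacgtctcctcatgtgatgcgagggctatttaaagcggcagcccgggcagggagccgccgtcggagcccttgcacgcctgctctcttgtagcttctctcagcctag
ANGPTL4: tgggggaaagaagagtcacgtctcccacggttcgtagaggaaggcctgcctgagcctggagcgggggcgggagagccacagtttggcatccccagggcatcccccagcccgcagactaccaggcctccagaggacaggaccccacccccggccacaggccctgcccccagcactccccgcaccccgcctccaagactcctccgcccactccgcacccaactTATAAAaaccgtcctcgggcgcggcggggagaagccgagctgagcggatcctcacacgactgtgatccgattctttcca

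The motifs were searched on both strands. They were the PPAR and RXR direct repeat AGGTCANAGGTCA (in 0.0228% of 35114 RefSeq windows of this length), its single half-site AGGTCA (13.8%), the STAT motif TTCNNNGAA (7.66%), the C/EBP core TTGCNNAA (10.5%) and the TATA box TATAAA (11.5%). Each full repeat also holds the half-site. The ANGPTL4 window held a TATA box at -29 to -24 and none of the others, and the FABP3 window held none of the 5. The window of PLIN2, which was not called, held a match at -29 to -24 too, but on the opposite strand (TTTATA). Some windows of PPARG and CD36 held a match to the TATA letters as well, in CD36 far from the start site (-211 to -206 and -216 to -211). Windows were matched for 7 of the 9 genes. FABP4 and LPL had no window here, so the motifs were not searched in them. PPARG, with 6 windows for its several start sites, had the half-site in 3, of which 2 overlap, and the C/EBP core in 1, and CD36, also with 6, had the STAT motif in 1. A missing match says only that these letters are not in the window.

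LPL, the lipase that frees fatty acids from lipoproteins, did not pass the threshold. It was at 5.28, 5.11 and 5.05 after oncostatin M, against 5.14, 5.16 and 5.02 in control, with overlapping groups in the silent range. The change was 0.04 (SE 0.09, 95% interval -0.16 to 0.23, limma adjusted p = 0.972), and its sign turned when oncostatin M 1 (-0.03) or control 3 (-0.01) was left out.

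CD36, a membrane protein that takes up fatty acids and oxidised lipoproteins, was at 4.25, 4.41 and 4.67 after oncostatin M, against 4.05, 4.19 and 4.07 in control. The groups did not overlap, but both means (4.44 ± 0.21 and 4.10 ± 0.08) were deep in the silent range, above 38.6% and 23.2% of the silent genes. The change of 0.34 (SE 0.11, 95% interval 0.08 to 0.59) did not pass (limma adjusted p = 0.223). It passed without oncostatin M 1 (0.43, adjusted p = 0.0422). SCARB1 and SCARB2, the related scavenger receptors, changed by -0.05 and -0.06.

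**Figure D3:**
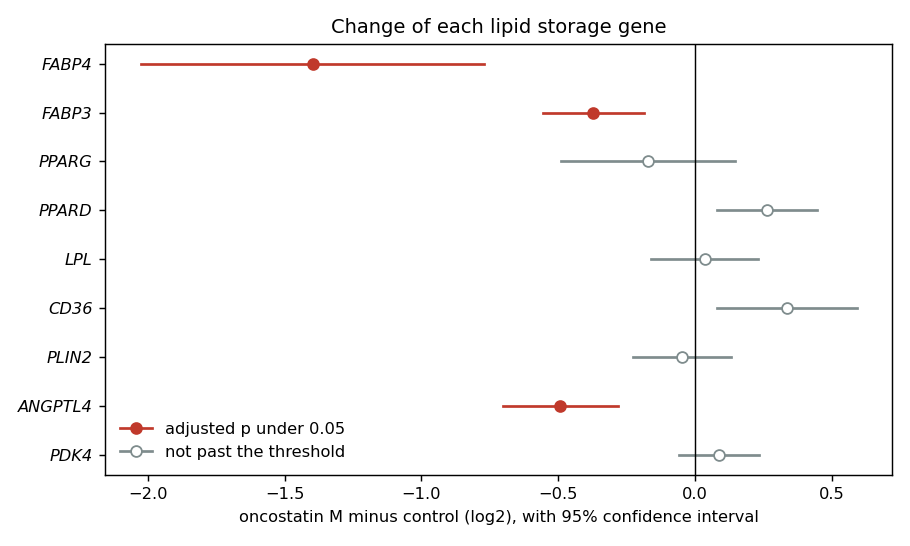
Change of each gene (horizontal axis, oncostatin M minus control, log2) with its 95% confidence interval from the limma fit, not adjusted for the number of genes. Filled red points passed an adjusted p of 0.05 (FABP4, FABP3 and ANGPTL4), and open grey points did not. The FABP4 interval, -2.03 to -0.77, is the widest.

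Of 17 measured genes that handle lipoprotein lipase and its substrates, 1 was higher and none lower, with a list median of 0.05. VLDLR, the receptor for very low density lipoprotein, rose by 0.81 (SE 0.14, limma adjusted p = 0.0163). It was at 9.20, 9.24 and 8.88 on the oncostatin M arrays, against 8.32, 8.51 and 8.07 on the control arrays, and the groups did not overlap. VLDLR did not pass with control 1 (adjusted p = 0.0962), control 3 (0.05155) or oncostatin M 2 (0.0533) left out. Of 22 genes of fatty acid uptake, binding and activation, ACSL4, which links coenzyme A to arachidonic acid, rose by 0.47 (SE 0.09, limma adjusted p = 0.0229). None was called lower, while 15 of the 22 changes lay below 0 and 7 above. ACSL4 lost its call in 5 of 6 fits, with adjusted p between 0.05036 without control 3 and 0.129 without control 1. It passed without oncostatin M 1 (adjusted p = 0.00565). The median of this list was -0.04.

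PLIN2, the coat protein of lipid droplets in most cells outside fat, was well above the silent range and did not pass the threshold. It was at 9.51, 9.69 and 9.66 after oncostatin M, against 9.66, 9.62 and 9.73 in control. The groups overlapped. The change of -0.05 (SE 0.08, limma adjusted p = 0.956) had a 95% interval of -0.23 to 0.13, and without oncostatin M 1 it was 0.01 (0.0064). PLIN1, PLIN3 and PLIN4 were not called either, with changes from -0.07 to 0.21.

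Among 20 other genes of lipid droplets and lipolysis, 1 was lower and none higher, and the list median was -0.01. MGLL, which splits monoglycerides and the endocannabinoid 2-AG, fell by 0.59 on the log2 scale (SE 0.09, limma adjusted p = 0.00829). It was at 9.50, 9.50 and 9.44 on the oncostatin M arrays, against 10.06, 10.21 and 9.93 on the control arrays. All oncostatin M arrays lay below all controls, and the call was lost without control 1 (adjusted p = 0.0605). No gene was called among 16 of triglyceride synthesis (list median -0.03) or among 19 of fatty acid synthesis and desaturation (-0.0005). In the first list GPAT3 and SOAT1, which esterify glycerol phosphate and cholesterol, had the largest changes, -0.46 (limma adjusted p = 0.232) and -0.39 (0.0605). GPAT3 lay in the silent range in both groups (6.09 after oncostatin M and 6.55 in control). In the second list the largest changes were those of the desaturase SCD5, -0.32 (0.1001), and ACLY, which makes cytosolic acetyl-CoA, -0.23 (0.164).

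PDK4, the kinase that shuts pyruvate dehydrogenase and moves cells from glucose to fat, was at 5.72, 5.73 and 5.71 after oncostatin M, against 5.64, 5.61 and 5.65 in control. The groups did not overlap, but all values lay in the silent range, and only 0.288% of all genes had a smaller SD within groups. The change of 0.09 (SE 0.06, 95% interval -0.06 to 0.24) did not pass (limma adjusted p = 0.775). PDK1, PDK2 and PDK3 were not called, with changes from -0.38 to -0.03.

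Of 32 measured genes of fatty acid oxidation and fuel choice, 1 was higher, none lower, and the median was 0.03. CPT1A, the gate of fatty acid entry into mitochondria and, like ANGPTL4, PLIN2 and PDK4, a known PPAR target, rose by 0.35 (SE 0.07, limma adjusted p = 0.0422). It was at 9.33, 9.34 and 9.39 on the oncostatin M arrays, against 8.90, 9.02 and 9.08 on the control arrays. CPT1A lost its call in 5 of 6 fits with 1 array left out, with adjusted p between 0.0882 without control 3 and 0.189 without control 1, and kept it without oncostatin M 1 (0.0394). Of these 4 PPAR targets, ANGPTL4 was called lower and CPT1A higher, and PLIN2 and PDK4 did not pass. FABP4, named above as a target of PPARG, was called lower too. The genes in this tally are not all PPAR targets of the set, and LPL (0.04) and CD36 (0.34, groups not overlapping) did not pass. PDK4, FABP4, LPL and CD36 lay in the silent range. A pattern over PPAR targets was not tested.

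**Figure D4:**
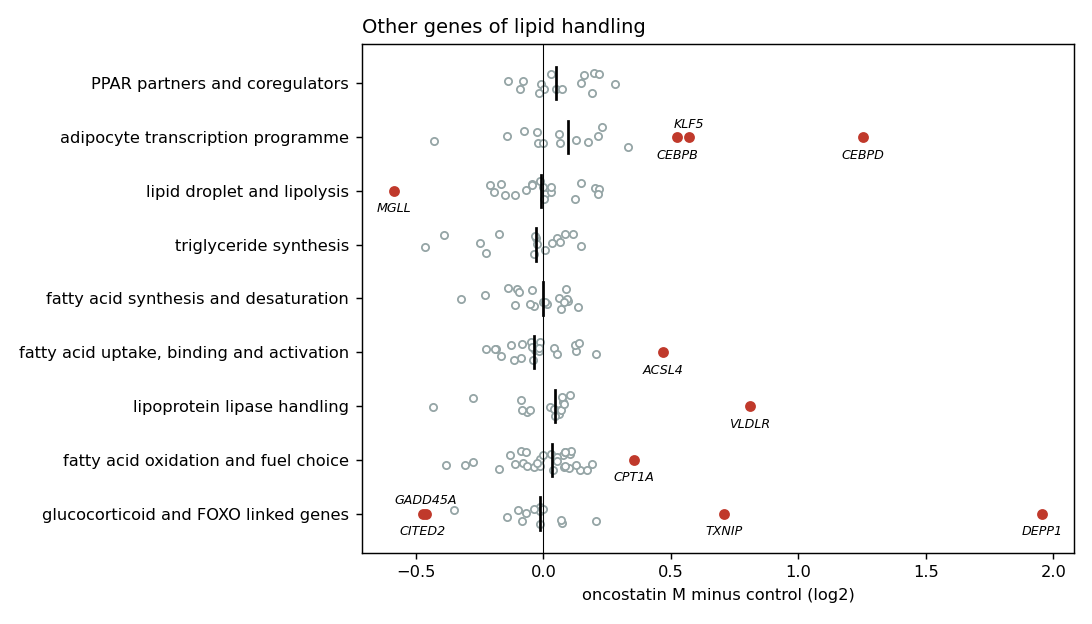
Change of every measured gene of 9 lists of lipid handling and linked genes (horizontal axis, oncostatin M minus control, log2). Filled red points with names passed an adjusted p of 0.05, open grey points did not, and black bars are list medians. Most genes lie near 0, with list medians between -0.04 and 0.10.

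**Figure D5:**
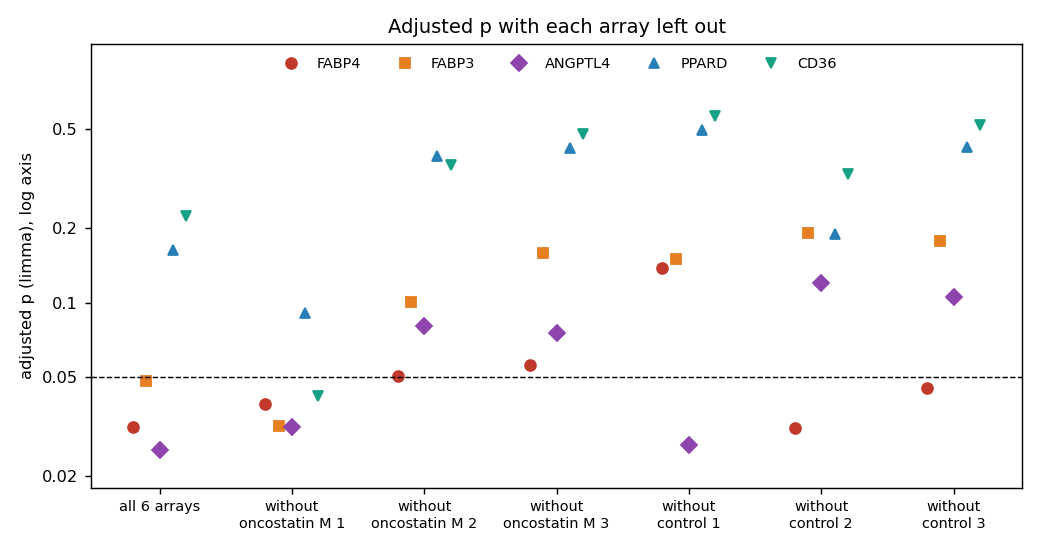
Adjusted p (vertical axis, limma, log scale) of FABP4, FABP3, ANGPTL4, PPARD and CD36 with all 6 arrays and with each array left out. The dashed line is 0.05. FABP3 stays under it only without oncostatin M 1 among the 6 fits with an array left out, and CD36 passes in that fit alone.

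The genes whose values followed FABP4 most closely over the 6 arrays, by Euclidean distance of log2 values centred on each gene's mean, were MYBL1 (distance 0.538), MAMDC2 (0.608) and SEMA3D (0.6375). Their changes were -1.37, -1.28 and -1.46. For PPARG the nearest genes were ATP6V1H (0.0798), ETNK2 (0.0924) and CLGN (0.0947), none of which was called. With 6 arrays in 2 groups such likeness is a description only.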

How the data were processed

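The deposited values are log2 expression levels, 1 per probe set and array, which the authors computed by RMA. The program, Affymetrix Expression Console 1.1, is named in the submitters' processing notes. The settings and a genome build are not given in the sources used here. RMA corrects background, equalises the arrays and summarises probes, and it shrinks differences at low intensity. RNA was labelled with an Ambion whole-transcript kit, per the labels' protocols.

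Of 33297 probe sets, 19460 had 1 gene symbol in the platform's gene table, 1754 several and 12083 none. The brightest probe set by mean over the arrays stood for each of 18417 genes, and R 4.3.3 with limma 3.58.1 tested these (functions lmFit and eBayes, group as the only term, two-sided, Benjamini-Hochberg over all genes, no filter on dim genes). The fit was tested on simulated data. All symbols of the 9 genes were current in RefSeq. The members and the 9 gene lists and 6 marker lists were chosen with earlier results of these data known. Text names all members and, per list, up to 4 called genes with the largest change or, where none was called, the 2 largest. Other list genes, PPARA and the families (FABP, ANGPTL, PDK, PLIN, SCARB) were added afterwards. No column was left unmapped, and no 2 arrays were identical. The number of arrays limits the precision. Alternatives covered normalization, filters, variance prior, array weights, replicate block, thresholds, averaging of probe sets and arrays left out. Figures were drawn with matplotlib 3.10.9.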

Additional observations from a re-analysis of the deposited data

How the results depend on the processing

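With 1 array left out the number of the 9 genes called lower ran from 0 to 3 and called higher from 0 to 1, and over all genes 105 to 332 were lower and 156 to 400 higher. In those fits the change ran from -1.64 to -1.09 for FABP4, -0.40 to -0.31 for FABP3, -0.58 to -0.43 for ANGPTL4, 0.22 to 0.43 for CD36, -0.0307 to 0.0842 for LPL and -0.0827 to 0.0064 for PLIN2. FABP4, FABP3 and ANGPTL4 kept their direction under every alternative in which they were tested. The cause of lost calls was not tested. FABP4 did not pass after quantile normalization (-1.40, adjusted p = 0.0511). FABP3 did not pass with arrays centred on their median (-0.38, adjusted p = 0.0589), a trended (-0.37, 0.0759) or a robust variance prior (-0.37, 0.0513). With array weights 610 genes were lower and 667 higher, PPARD (0.33, adjusted p = 0.0119) and CD36 (0.50, 0.00856) passed, so that 2 of the 9 were higher, and the sign turned for LPL (-0.043) and PPARG (0.0262). At a threshold of 0.01, 112 genes were lower and 175 higher, and none of the 9 was called, FABP4 (-1.40), FABP3 (-0.37) and ANGPTL4 (-0.49) included. When only genes above the silent range were tested, 1 of the 9 was lower, because FABP4 and FABP3 were then left out. The same filter removed LPL, CD36 and PDK4. A milder filter on dim genes removed FABP4, LPL, CD36 and PDK4, which then had no value.

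The labels do not say whether replicate numbers pair the samples, and 3 arrays per group cannot settle it. Deviations of same-numbered arrays correlated at 0.064, -0.456 and 0.511. Of 6 arrays, 3 correlated best with their own number in the other group. With the replicate number as a block 1 of the 9 was lower, and FABP3 (-0.37, adjusted p = 0.110) and ANGPTL4 (-0.49, 0.0527) did not pass. Of the listed genes, the block also ended the calls of ACSL4 (adjusted p = 0.0531), CPT1A (0.0893), GADD45A (0.0505), KRT18 (0.0814), LUM (0.0702), PDGFRA (0.0697) and PDGFRB (0.0871), while CEBPD, CEBPB, KLF5, MGLL, VLDLR, TXNIP, CITED2 and DEPP1 passed. None of the 9 measured genes had a second probe set with 1 symbol, so no other probe set could be given for them. Averaging all probe sets of each gene left 3 of the 9 lower and 0 higher. Signal over background limits FABP4, FABP3, LPL, CD36 and PDK4, whose means lay in the silent range.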

Other observations

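Genes linked to glucocorticoid and FOXO signalling, which also act on PDK4 and ANGPTL4, went both ways after oncostatin M. Of 17 measured, 2 were higher and 2 lower (limma, adjusted p under 0.05), with a list median of -0.01. DEPP1, a FOXO target, rose by 1.96 and TXNIP, an inhibitor of thioredoxin and of glucose uptake, by 0.71 (SE 0.10, adjusted p = 0.00614). CITED2, a transcriptional coregulator, changed by -0.47 (SE 0.07, adjusted p = 0.00910) and the stress gene GADD45A by -0.46 (adjusted p = 0.0277). DEPP1 kept its call in all 6 fits with 1 array left out, TXNIP lost it without control 1 (adjusted p = 0.0505) and CITED2 without control 3 (0.0515). GADD45A lost it in 4 of 6 fits, with adjusted p of 0.113, 0.122 and 0.117 without control 1, 2 and 3 and 0.0696 without oncostatin M 2.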
